A study of Mus musculus with 47 samples.

Results

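The genes described here are the potassium and calcium channel genes of the mouse mammary epithelium, taken as every gene in the expression table whose symbol starts with Kcn (potassium channels and their subunits) or Cacn (voltage-gated calcium channels and their subunits). They numbered 76 of the 17078 genes in the table, 60 Kcn and 16 Cacn genes, out of 125 genes with such symbols in the annotation. The rule used the name alone and no measured value, although it was set with earlier results of these data known. RNA sequencing was carried out on epithelial cells sorted by flow cytometry from FVB/N females into a luminal population (lineage-negative, CD24+ CD29lo) and a basal population (lineage-negative, CD24+ CD29hi). There were 46 libraries, 24 luminal and 22 basal, from 24 sorts, of which 22 gave a library of both kinds.

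The 8 time points were never-pregnant females at 10 weeks (W10) and at 4 months (M4), pregnancy day 3.5 (P3.5) and day 14.5 (P14.5), lactation day 3 (L3) and day 10 (L10), 2 days after forced weaning on lactation day 10 (Id2), and 4 weeks after weaning (Iw4, parous females, for whom M4 served as the age-matched group). Each condition had 3 replicates, apart from basal P14.5 and basal L10 with 2. The labels give no transgene and no drug treatment for any group. The cells of a sort came from pooled glands, so a replicate stood for a pool of animals and not for 1 animal, and the p-values measured the spread between these pools. Forced weaning is a synchronised form of involution and differs from gradual natural weaning. All sorted cells went through amplification of their RNA before sequencing. Because the tissue was sorted in bulk, fewer cells of a type and less RNA per cell cannot be told apart.

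Potassium channels let potassium leave the cell and so set the resting membrane potential, and in a secretory epithelium this outward flow supplies the driving force for chloride and fluid secretion. Voltage-gated calcium channels open on depolarisation and admit the calcium that starts contraction in muscle-like cells. The pore-forming alpha-1 subunit of a calcium channel is carried to the membrane and tuned by alpha2delta and beta subunits, whereas potassium channels fall into voltage-gated, inward rectifier, calcium-activated and tandem-pore background families with their own auxiliary subunits. The luminal cells of the gland make milk, and the basal cells are mostly myoepithelial cells, which contract around the alveoli in response to oxytocin. Calcium-activated channels of large conductance in smooth muscle limit contraction, and the beta-1 subunit Kcnmb1 makes them more sensitive to calcium.

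Values are given as CPM, the reads of a gene divided by the effective size of its library on the scale the authors deposited. A single read equalled from 0.0566 CPM (basal P3.5 replicate 2) to 0.351 CPM (luminal L3 replicate 6). The libraries held between 4398806 and 20023054 reads on genes (median 8518616). Most channel genes were expressed at low levels: the median over the 76 genes of the mean CPM was 1.705, against 10.555 over all 17078 genes. Of the 76, 27 had a mean of at least 20 CPM in at least 1 of the 16 conditions, 27 stayed under 5 CPM in every condition, and 2 stayed under 1 CPM. Taking 3 reads as the least that can be distinguished from 0, 8 channel genes reached it in all 46 libraries and 22 reached it in fewer than 23 libraries. A gene was called changed when its fold was at least 2 and its false discovery rate was under 0.01 in limma over all 17078 genes, on log2(CPM + 1), and this scale understates the change of low genes.

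Markers of other cell types were not equal among the basal libraries. The summed level of 8 basal epithelial markers lay between 12478 and 26760 CPM in the never-pregnant basal libraries, and it was 873, 14412 and 828 CPM in the Id2 basal libraries, so 2 of these 3 were nearly without their own markers. The sum of 8 pericyte markers, with Rgs5 the most abundant, was 161 to 246 CPM in the never-pregnant basal libraries, 1360 and 1155 CPM at P14.5, 2003, 4593 and 7579 CPM at L3, 10019 and 17317 CPM at L10, and 2957, 11706 and 2418 CPM at Id2. Pericytes are the contractile cells of small vessels and share many channel genes with vascular smooth muscle. Fibroblast markers summed to 11906 and 5993 CPM at P14.5 and to 72328 CPM in 1 Id2 library, and endothelial markers to 17157 CPM in another Id2 library. All 8 pericyte, all 8 endothelial, 4 of 8 fibroblast and 2 of 8 basal epithelial markers rose in basal cells in lactation. Of 8 adipocyte markers 4 were in the table (Fabp4, Lep, Plin1 and Plin4), and all 4 rose there. Their sum, with Fabp4 the most abundant gene in lactation, was 25.7 to 76.7 CPM in never-pregnant basal libraries, 286 and 107.5 CPM at P14.5, 657 to 1118 CPM in lactation and 3722, 689.5 and 246 CPM at Id2, where Fabp4 alone of the 4 rose. Fabp4 is also known from capillary endothelium. The part of these cells in the basal results at P14.5, lactation and Id2 was not tested, and those results are therefore given with these sums beside them. Luminal markers summed to between 3493 and 9919 CPM in the luminal libraries, which were not free of other markers either. Leukocyte markers (7 of 8 in the table) summed to 6.1 to 16.6 CPM in never-pregnant luminal libraries, 17.1 to 69.1 CPM at L3, 23.8 to 232 CPM at L10 and 55.7 to 250 CPM at Id2, and fibroblast markers reached 5230 CPM in 1 luminal Id2 library against at most 405 CPM in never-pregnant ones.

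**Figure D1:**
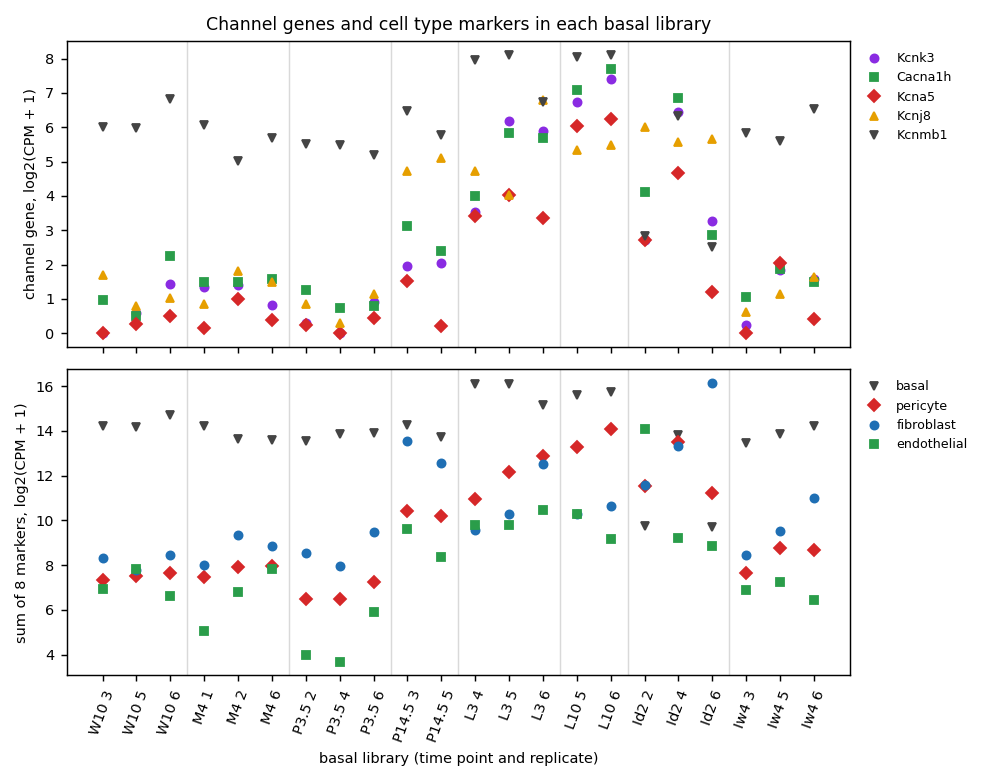
Levels of Kcnk3, Cacna1h, Kcna5, Kcnj8 and Kcnmb1 and the summed levels of 8 basal, 8 pericyte, 8 fibroblast and 8 endothelial markers in each basal library (horizontal axis, by time point and replicate), as log2(CPM + 1). Each point is 1 library, with the channel genes above and the marker sums below. The pericyte sum ran from 161 to 246 CPM in never-pregnant libraries and reached 17317 CPM at L10, and 2 of the 3 Id2 libraries had basal marker sums of 873 and 828 CPM.

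Basal and luminal cells expressed different channel genes. Over the 8 time points 28 channel genes were higher in basal cells (36.8% of the 76, against 13.6% of all genes) and 9 were higher in luminal cells, that is lower in basal cells (11.8%, against 7.35% of all genes). The median difference of the 76 genes was 0.47 on the log2 scale, and that of all genes was 0.02.

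The 9 genes called luminal over the 8 time points were all potassium channel genes. Kcnn4, the calcium-activated channel of intermediate conductance found in many secretory epithelia, ranged from 42.0 to 333 CPM in the 24 luminal libraries (median 101 CPM) and from 1.62 to 65.4 CPM in the 22 basal libraries (median 6.84 CPM). The ranges overlapped through 1 basal P14.5 library, and luminal was above basal in all 22 sorts with both libraries. The basal minus luminal difference was -3.48 (SE 0.21, adjusted p = 5.6e-17). Kcnk5, an alkaline-sensitive tandem-pore channel, ranged from 47.4 to 341 CPM in luminal libraries (median 87.0 CPM) and from 3.62 to 38.4 CPM in basal libraries (median 12.5 CPM). It was the only channel gene for which every luminal library lay above every basal library (0.545% of all genes did so), and its difference was -2.80 (SE 0.17, adjusted p = 2.2e-17). Kcnj15, an inward rectifier of secretory and absorptive epithelia, differed by -2.90 (SE 0.22), and the tandem-pore genes Kcnk6 and Kcnk1 by -2.29 (SE 0.19) and -2.07 (SE 0.15). Kcnj15 and Kcnk1 were also higher in the luminal library of all 22 sorts, and Kcnk6 in 19 of 22. Of the lower genes, the voltage-gated Kcnh7, Kcnh2, Kcnq1 and Kcnd2 differed by -1.72, -1.17, -1.15 and -1.05, and without basal M4 replicate 1 Kcnd2 fell short of the 2-fold limit.

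For a rough comparison between genes, levels were divided by the merged length of all annotated exons of a gene, in kilobases. This length can exceed that of any single transcript, and the level is then understated. It was 21.2 kb for Cacna1c and 2.2 kb for Kcnk1. Averaged over the 8 time points, Kcnk1 had the highest mean level of the 76 in luminal cells at 131 CPM per kb. Next came Kcnj15 (31.8), Kcnk5 (31.5), Kcnn4 (24.0), the calcium channel beta subunit Cacnb3 (13.2), the voltage-gated Kcnh1 (9.29) and Kcnk6 (8.83). In never-pregnant luminal libraries the order was Kcnk1 (96.7 CPM per kb), Kcnk5 (25.6), Kcnn4 (11.8), Kcnh1 (10.7), Cacnb3 (8.49) and Kcnj15 (3.67), with Kcnk6 at 1.12, so the places of Kcnj15 and Kcnk6 rested on later time points. Kcnk1 was also the highest per kilobase in basal cells at 33.3 CPM per kb, although it was called luminal. Cacnb3 and Kcnh1 were called in neither direction, and Cacnb3 differed by -0.01 (SE 0.13, adjusted p = 0.93).

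The 250 bases before the annotated start of Kcnj15 and Kcnn4 are printed 5′ to 3′ on the gene strand from RefSeq (build GRCm38.p6), as examples of luminal potassium channel genes that also rose in luminal cells in lactation. Kcnj15 lies at chr16:95257308-95257557 on the + strand and Kcnn4 at chr7:24370013-24370262 on the + strand.
Kcnj15: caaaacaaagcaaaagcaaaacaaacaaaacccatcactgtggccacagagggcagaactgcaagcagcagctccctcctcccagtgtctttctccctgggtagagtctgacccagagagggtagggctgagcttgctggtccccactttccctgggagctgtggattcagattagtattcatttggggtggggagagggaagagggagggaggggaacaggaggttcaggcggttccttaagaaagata
Kcnn4: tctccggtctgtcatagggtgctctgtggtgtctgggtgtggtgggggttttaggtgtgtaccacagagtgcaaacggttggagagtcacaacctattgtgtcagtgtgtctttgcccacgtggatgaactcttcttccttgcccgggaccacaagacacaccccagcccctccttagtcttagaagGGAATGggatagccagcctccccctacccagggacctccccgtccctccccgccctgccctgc
Capitals mark an M-CAT motif (CATTCC, the site of TEAD factors, here on the opposite strand), which starts 63 bases before the start site of Kcnn4. Windows of this length were found for 56 of the 76 genes, 82 windows in all. The letters TTCNNNGAA, a STAT-type site read on both strands, were in the windows of 5 members (5 of 82 windows), against 7.02% of all 32851 promoter windows, and in neither of the 2 windows shown.

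Cacna2d1 and Kcnmb1, subunits of the L-type calcium channel and of the large-conductance calcium-activated potassium channel, had the largest basal differences. Cacna2d1, the alpha2delta subunit of the L-type channel, ranged from 25.5 to 282 CPM in basal libraries (median 162 CPM) and from 0 to 8.54 CPM in luminal libraries (median 1.28 CPM). Kcnmb1 ranged from 4.69 to 276 CPM in basal libraries (median 62.6 CPM) and from 0 to 3.07 CPM in luminal libraries (median 0.409 CPM). Cacna1c, the L-type pore itself, ranged from 23.8 to 360.2 CPM in basal libraries (median 64.5 CPM) and from 0.981 to 14.1 CPM in luminal libraries (median 3.22 CPM). In these 3 genes, and in no other of the 76, every basal library lay above every luminal library, which was so for 1.23% of all genes. Their differences were 5.80 (SE 0.21, adjusted p = 1.2e-23) for Cacna2d1, 5.54 (SE 0.20, adjusted p = 1.1e-23) for Kcnmb1 and 4.28 (SE 0.20, adjusted p = 1.3e-20) for Cacna1c.

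A further 10 basal genes, whose ranges overlapped between the populations, differed by 2.76 to 4.57. Kcnma1, the pore to which Kcnmb1 binds, had a median of 20.4 CPM in basal libraries and 0.231 CPM in luminal libraries, with 1 Id2 basal library listed at 0, and differed by 3.98 (SE 0.16). Kcnq5, a voltage-gated channel of the M-current family, differed by 4.57, the low-voltage (T-type) calcium pore Cacna1g by 4.52, the inward rectifier Kcnj2 by 4.35 and Kcnip3, a calcium-binding partner of A-type channels, by 3.89. The calcium channel beta subunit Cacnb4 differed by 3.21, the L-type pore Cacna1d by 3.09, the small regulator Kcne4 by 2.91, the gamma subunit Cacng7 by 2.87 and the T-type pore Cacna1h by 2.76. Per kilobase and averaged over the 8 time points, the basal order after Kcnk1 was Kcnmb1 (24.3 CPM per kb), Kcnj2 (22.0), Kcnip3 (18.9), Cacnb3 (14.5), Cacna2d1 (12.9), Kcne4 (9.72), Kcnj8 (8.77), Kcnh1 (8.71) and Kcnk3 (7.01). In never-pregnant basal libraries it was Kcnj2 (33.4 CPM per kb), Kcnip3 (17.8), Cacna2d1 (17.2), Kcnmb1 (15.3), Kcnh1 (10.4) and Cacnb3 (9.70), and Kcne4, Kcnj8 and Kcnk3 were at 1.13, 0.594 and 0.258 CPM per kb.

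Part of the basal set rested on the time points with stromal markers. Without the P14.5, L3, L10 and Id2 libraries, 19 genes were higher in basal cells, 18 of them shared with the 28. Among the 10 lost were Kcnj8, Kcnk3, Kcna5, Kcna2, Kcnt2, Cacnb2, Kcnab1 and Kcnn3, and Kcna6 was gained. In the luminal direction 12 genes were called in place of 9, with none lost and the calcium channel subunit Cacng4, Kcnk16 and Kcns3 gained. In the remaining time points Cacnb2 stood at 0.94, Kcna2 at 0.92, Kcnj8 at 0.87 and Kcnk3 at 0.73, under 2-fold with adjusted p of 1.1e-06, 8e-06, 0.0002 and 0.00083 in limma. Kcnt2 stood at 0.50, Kcna5 at 0.42, Kcnn3 at 0.19 and Kcnab1 at -0.16, whereas Cacna2d1, Kcnmb1, Cacna1c, Kcnma1, Kcnq5, Cacna1g, Kcnj2, Kcnip3, Cacnb4 and Cacna1d were among the 18 shared.

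**Figure D2:**
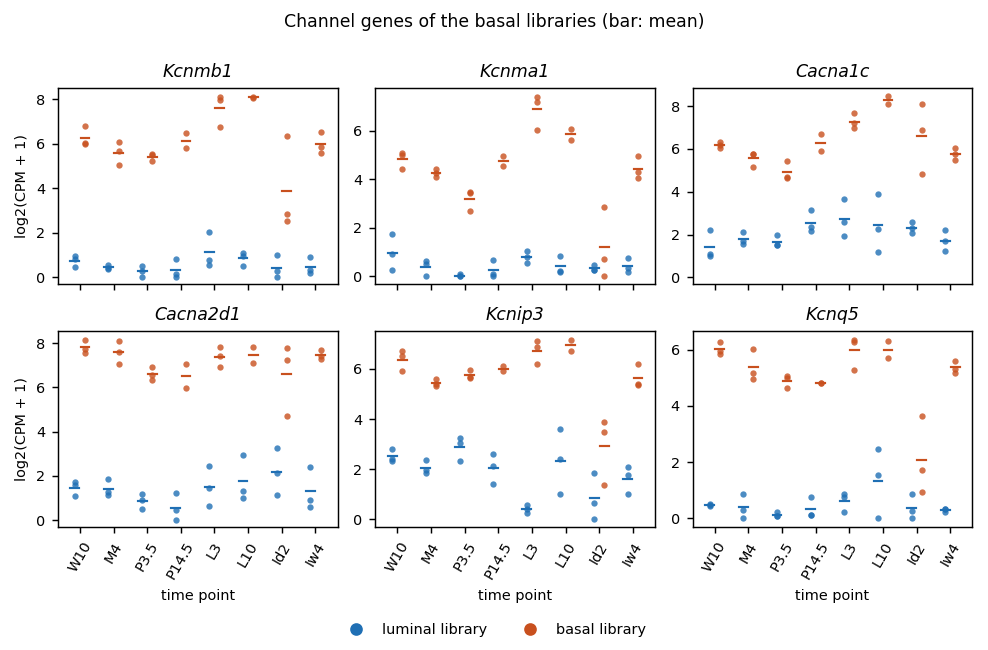
Level, as log2(CPM + 1), of Kcnmb1, Kcnma1, Cacna1c, Cacna2d1, Kcnip3 and Kcnq5 at the 8 time points in luminal and basal libraries. Each point is 1 library and short bars mark the mean of the log2 values. Cacna2d1, Kcnmb1 and Cacna1c did not overlap between the populations, and Kcnmb1 rose to between 105 and 276 CPM in the lactation basal libraries.

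The promoters of Kcnmb1 and of Kcna5, a voltage-gated channel of vascular smooth muscle, are printed in the same way as an example of a gene basal at all time points and of one basal through lactation and Id2. Kcnmb1 lies at chr11:33962763-33963012 on the + strand and Kcna5 at chr6:126535556-126535805 on the - strand.
Kcnmb1: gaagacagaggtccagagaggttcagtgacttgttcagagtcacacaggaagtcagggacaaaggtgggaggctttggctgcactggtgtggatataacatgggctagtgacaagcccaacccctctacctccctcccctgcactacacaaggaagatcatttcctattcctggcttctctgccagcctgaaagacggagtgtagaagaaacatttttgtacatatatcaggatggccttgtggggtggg
Kcna5: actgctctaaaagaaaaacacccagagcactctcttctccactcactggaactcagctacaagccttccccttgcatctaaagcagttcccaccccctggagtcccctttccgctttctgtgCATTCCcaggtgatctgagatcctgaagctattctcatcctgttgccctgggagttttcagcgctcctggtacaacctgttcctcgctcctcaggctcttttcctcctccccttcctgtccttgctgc
Capitals mark an M-CAT motif (CATTCC) that starts 128 bases before the start site of Kcna5. M-CAT motifs, searched on both strands, were in 12 of the 82 member windows, against 12.6% of all windows. The CArG box, the site of serum response factor in smooth muscle genes, was in 0 of the 82 member windows, against 1.47% of all windows.

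At single time points, 40 channel genes were called basal at 1 or more (26.7% of all genes were) and 13 luminal (20.1% of all genes), with 0 genes called in opposite directions at different time points (0.984% of all genes) and 23 called at none. With the sort as a block these counts were 42 and 14, and Cacnb3, called luminal at Id2, was then also called basal at L3 (1.08, adjusted p = 0.0042). Basal calls were 15 at W10 (9.1% of all genes), 14 at M4 (8.2%), 15 at P3.5 (7.27%), 22 at P14.5 (9.54%), 31 at L3 (15.9%), 30 at L10 (13.8%), 22 at Id2 (12.2%) and 15 at Iw4 (7.79%). Channel genes were thus called basal most often in lactation, and so were all genes. Called basal at all 8 time points (2.39% of all genes) were 8: Cacna2d1, Kcnmb1, Kcnq5, Cacna1g, Cacna1c, Kcnip3, Cacnb4 and Cacng7. Called luminal at all 8 (0.908% of all genes) were Kcnn4 and Kcnk5. With the sort as a block, Kcnj15 was also called at W10 (adjusted p = 0.0036) and Kcnk1 at W10, M4 and Iw4 (adjusted p = 0.0068, 0.0035 and 0.0038), so that both were then called luminal at all 8.

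**Figure D3:**
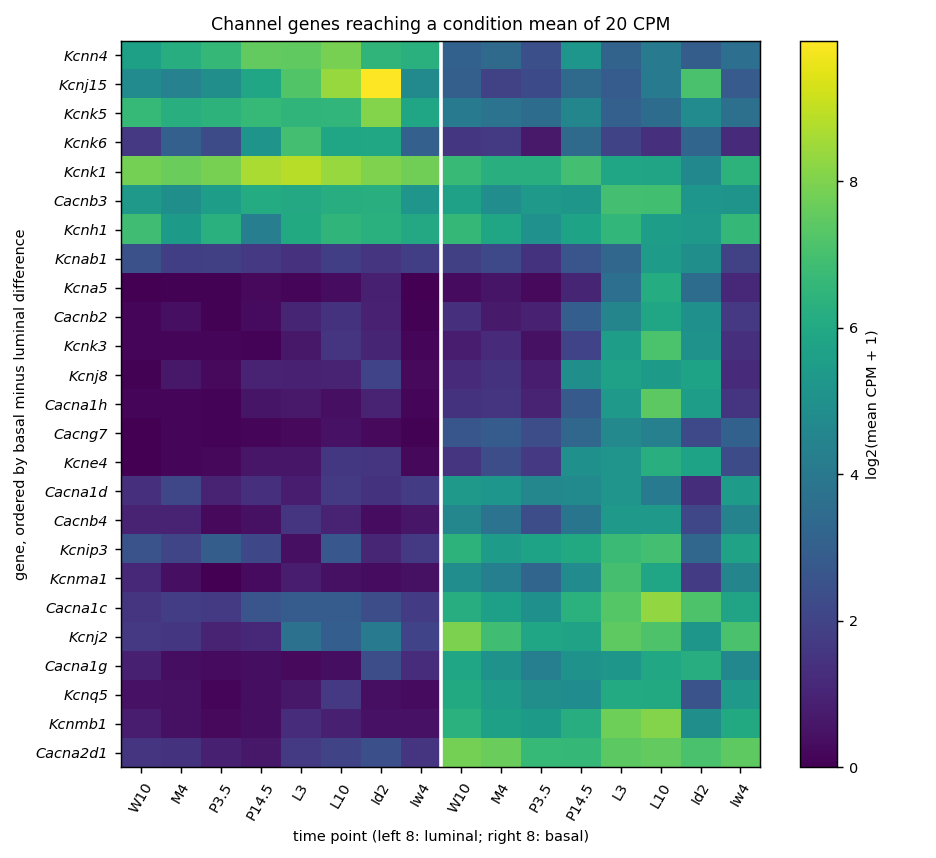
Mean level of 25 channel genes that reached a mean of 20 CPM, in the 16 conditions, as log2(mean CPM + 1) by colour, ordered by the basal minus luminal difference, with luminal conditions on the left and basal conditions on the right. Kcnn4, Kcnk5, Kcnj15 and Kcnk1 stand out in the luminal columns, and Cacna2d1, Kcnmb1, Cacna1c, Kcnj2 and Kcnip3 in the basal columns.

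Across the 8 time points, 14 channel genes varied in luminal cells and 39 in basal cells. The rule was a false discovery rate under 0.01 in limma's F-test and a range of condition means of at least 1 on the log2 scale, and 31.5% of all genes passed it in luminal and 42.7% in basal cells. The median range of the 76 genes was 1.07 in luminal cells (all genes 1.13) and 1.93 in basal cells (all genes 1.34). The largest luminal ranges were those of Kcnj15 (5.51), Kcnk6 (5.24), Kcnd2 (3.19), Cacng4 (3.13) and Kcnj2 (3.04). In basal cells they were those of Kcnk3 (6.66), Cacna1h (6.46), Kcna5 (5.91) and Kcnma1 (5.68).

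Lactation (L3 and L10 together, 6 luminal libraries) was compared with never-pregnant glands (W10 and M4 together, 6 luminal libraries). Of the 76 channel genes, 5 rose in luminal cells (6.58%, against 7.37% of all genes) and 2 fell (2.63%, against 5.83%), with a median change of 0.10 (all genes -0.01). The count of 7 was 11 without luminal L10 replicate 4 or with edgeR on recovered reads, 10 without L3 replicate 5 and 5 without L10 replicate 5 or M4 replicate 1. With the sort as a block it was 7, with Cacng4 (-1.42, adjusted p = 0.0098) added as falling. The lactation libraries formed 1 amplification batch that held no never-pregnant library, so lactation and batch cannot be told apart.

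Kcnk6 had the largest luminal change. Its level ran from 1.47 to 12.9 CPM with a median of 3.24 CPM in never-pregnant libraries. In lactation it was 146, 61.9 and 163 CPM at L3 and 53.8, 43.1 and 72.2 CPM at L10. The groups did not overlap, and the change was 4.10 (SE 0.37, adjusted p = 1.8e-10). It was already 28.3, 45.1 and 29.4 CPM at P14.5 against 3.01, 2.93 and 5.91 CPM at P3.5, and these 2 time points shared a batch.

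Kcnj15 ran from 17.7 to 40.1 CPM in never-pregnant luminal libraries (median 20.2 CPM). It was 119.8, 70.5 and 252 CPM at L3, 93.8, 513 and 397 CPM at L10, and 906, 915 and 1074 CPM at Id2. The 3 Id2 libraries were above all others, the lactation libraries were above all never-pregnant ones, and the Iw4 values of 27.1, 26.8 and 23.6 CPM lay within the never-pregnant range. The change in lactation was 3.01 (SE 0.42, adjusted p = 7.5e-07).

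Kcnn4 ran from 42.0 to 84.9 CPM (median 54.8 CPM) in never-pregnant luminal libraries and was 165, 133 and 245 CPM at L3 and 176, 197 and 333 CPM at L10. These groups did not overlap, and the change was 1.76 (SE 0.41, adjusted p = 0.0011); without the L10 libraries it was 1.57 with an adjusted p of 0.019. Of the 7 leukocyte markers, Cd3e and Laptm5 also rose in the luminal lactation libraries, and the part of leukocytes in the Kcnn4 result was not tested. Kcnj2, which sets the resting potential in muscle, ran from 0.412 to 3.16 CPM and from 4.14 to 22.4 CPM, without overlap, and changed by 1.62 (SE 0.41, adjusted p = 0.0023), a call lost without luminal L3 replicate 6 (1.35), L10 replicate 5 (1.42) or M4 replicate 1 (1.39). Kcnj2 was chiefly a basal gene, and 5 of 8 basal markers, 4 of 8 pericyte and 7 of 8 endothelial markers also rose in the luminal lactation libraries. The basal marker sum was 2573 CPM in 1 L10 luminal library against 119.5 to 225 CPM in never-pregnant ones, and the part of such cells in the Kcnj2 result was not tested.

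The genes that fell in luminal cells were low throughout. Kcnd2, an A-type potassium pore, ran from 2.22 to 13.6 CPM (median 7.37 CPM) in never-pregnant libraries and from 0 to 3.19 CPM (median 0.434 CPM) in lactation, and fell by 2.04 on the log2 scale (SE 0.25, adjusted p = 1e-07). The silent subunit Kcns3 fell by 1.35 (SE 0.28, adjusted p = 0.00028), a call lost without the L10 libraries (-1.08, adjusted p = 0.017). Without those libraries 4 channel genes fell in place of 2, Kcnd2 with Cacng4, Kcnip3 and Kcnn2. Kcnk1 and Kcnk5, with luminal changes of 0.78 (SE 0.29, adjusted p = 0.033) and 0.11 (SE 0.32, adjusted p = 0.83), did not pass.

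**Figure D4:**
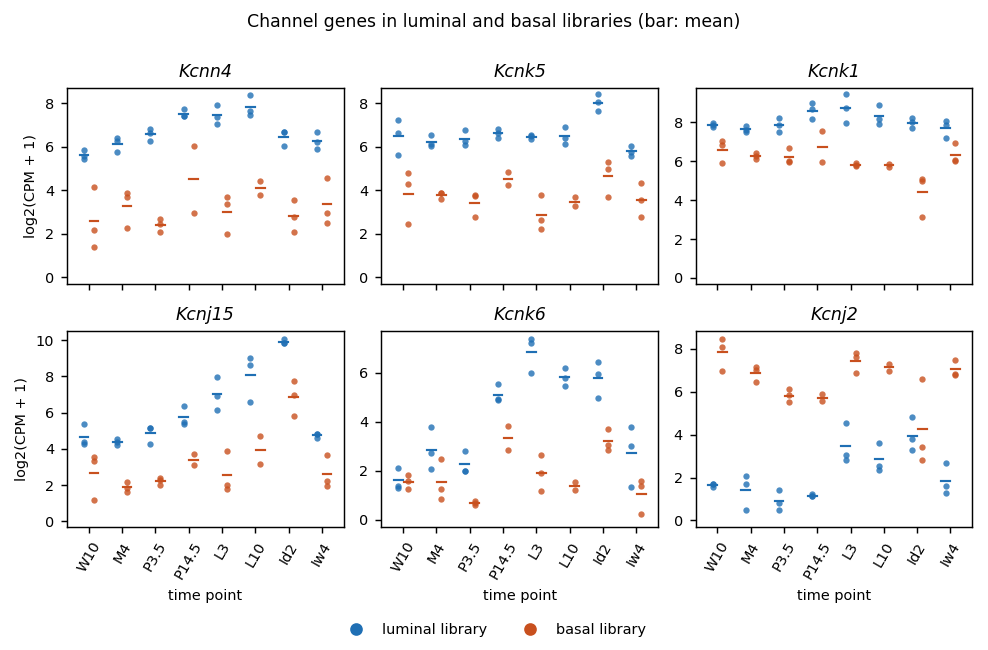
Level, as log2(CPM + 1), of Kcnn4, Kcnk5, Kcnk1, Kcnj15, Kcnk6 and Kcnj2 at the 8 time points in luminal and basal libraries. Each point is 1 library and short bars mark the mean of the log2 values. Kcnj15 reached 906 to 1074 CPM in the 3 luminal Id2 libraries, and Kcnk6 went from at most 12.9 CPM in never-pregnant luminal libraries to at least 43.1 CPM in lactation.

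In basal cells 23 channel genes rose in lactation (30.3%, against 9.58% of all genes) and 4 fell (5.26%, against 6.97%), over 5 lactation and 6 never-pregnant libraries. The median change was 0.27, and that of all genes was -0.05. Among the genes that rose were tandem-pore and inward rectifier channels (Kcnk3, Kcnj8, Kcnj12), voltage-gated pores (Kcna5, Kcna2, Kcnd1, Kcnd3, Kcnh2), calcium-activated channels (Kcnma1, Kcnmb1, Kcnn3) with the sodium-activated Kcnt1, calcium channel pores (Cacna1c, Cacna1h) and their subunits (Cacnb2, Cacnb3, Cacnb4, Cacng7), and the auxiliary subunits Kcne3, Kcne4 and Kcnab1. Many of these, such as Kcnj8 and Kcna5, are known from vascular smooth muscle. Their starting levels were unequal.

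One kind was nearly silent before pregnancy. Kcnk3, a tandem-pore channel that sets the resting potential of pulmonary artery muscle, ran from 0 to 1.70 CPM (median 1.14 CPM) in never-pregnant basal libraries and was 10.6, 70.9 and 58.1 CPM at L3 and 105 and 167 CPM at L10. Cacna1h ran from 0.41 to 3.75 CPM (median 1.83 CPM) and was 15.1, 55.6 and 50.5 CPM at L3 and 135 and 208 CPM at L10. Neither gene had overlapping groups, and their changes were 5.19 (SE 0.46, adjusted p = 4.2e-11) and 4.90 (SE 0.40, adjusted p = 9e-12). Kcna5 ran from 0 to 1.01 CPM and was 9.71, 15.2 and 9.19 CPM at L3 and 64.2 and 75.0 CPM at L10, a change of 4.48 (SE 0.37, adjusted p = 1.3e-11). Kcnj8, the pore of the ATP-sensitive channel of vascular muscle and pericytes, ran from 0.718 to 2.48 CPM and was 25.3, 15.2 and 109 CPM at L3 and 39.5 and 43.7 CPM at L10, a change of 4.02 (SE 0.39, adjusted p = 4.2e-10). In all 4 genes each lactation library was above each never-pregnant one. Cacnb2 changed by 4.17 and Kcne4 by 3.65. The groups overlapped for Kcne4, where 1 M4 library had 11.1 CPM.

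The order of these genes among the 5 lactation basal libraries followed the pericyte sum in part. What follows is a description over 5 libraries that share an amplification batch and differ in depth. The rank correlation with the pericyte sum was 1 for Cacna1c and Kcnn3 and 0.9 for Kcnk3, Cacna1h, Cacnb2 and Kcne4. It was 0.7 for Kcna5 and 0.6 for Kcnj8, Kcnab1, Kcna2 and Kcnt1. It was 0.2 for Kcnmb1, -0.5 for Cacnb3 and Kcne3 and -0.8 for Kcnma1, and lay between -0.3 and 0.5 for the remaining genes named as rising. The 2 L10 libraries had the highest pericyte sums and were on another sequencing lane than the L3 libraries. Both were above all L3 libraries for Cacna1c, Kcnn3, Kcnk3, Cacna1h, Cacnb2, Kcna5 and Kcnab1. For these genes the day of lactation, the sequencing lane and the pericyte sum cannot be told apart. The part of pericytes in these changes was not tested.

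The other kind was already expressed in basal cells before pregnancy. Kcnmb1 ran from 31.3 to 111 CPM (median 62.6 CPM) in never-pregnant basal libraries and was 246, 276 and 105 CPM at L3 and 264 and 275 CPM at L10. Its groups overlapped by 1 L3 library, and the change was 1.91 (SE 0.41, adjusted p = 0.00035). Cacna1c ran from 35.0 to 78.3 CPM (median 58.9 CPM) and was 124, 145 and 201 CPM at L3 and 273 and 360.2 CPM at L10, without overlap, a change of 1.91 (SE 0.40, adjusted p = 0.00028). Kcnma1 ran from 16.2 to 33.0 CPM (median 20.4 CPM) and was 146, 169 and 64.0 CPM at L3 and 67.1 and 48.4 CPM at L10, without overlap, a change of 1.82 (SE 0.34, adjusted p = 5.3e-05). Cacnb3, not specific to either population over all time points, was 70.5 to 157 CPM against 26.2 to 52.4 CPM, a change of 1.61 (SE 0.26, adjusted p = 6.7e-06). Basal epithelial marker sums were also higher, at 36043 to 70542 CPM in the lactation libraries. As given above, only some of these markers rose there. Myh11 was the most abundant of them in lactation, with means of 24418 CPM at L3 and 23151 CPM at L10. In never-pregnant basal libraries Acta2 was the most abundant.

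Some abundant basal genes did not pass in lactation, Cacna2d1 with -0.27 (SE 0.43, adjusted p = 0.67) and Kcnq5 with 0.28 (SE 0.35, adjusted p = 0.57). The 4 that fell were the gamma subunit Cacng4 (-1.63), Kcne1l (-1.34), Kcnd2 (-1.25) and Kcna6 (-1.15), all with means under 5 CPM in never-pregnant basal libraries. Without the L10 libraries 18 genes rose, 16 of them shared with the 23, and Cacna1c, Kcnmb1, Cacnb4, Kcnab1, Kcnd1, Kcnn3 and Kcnt1 were no longer called, nor were Cacng4 and Kcne1l among the 4 that fell. Leaving out single libraries removed the calls of Cacnb4, Cacng7, Kcna2, Kcnd1, Kcnd3, Kcne3 and Kcnt1 among those that rose, and of Cacng4 and Kcna6 among those that fell.

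**Figure D5:**
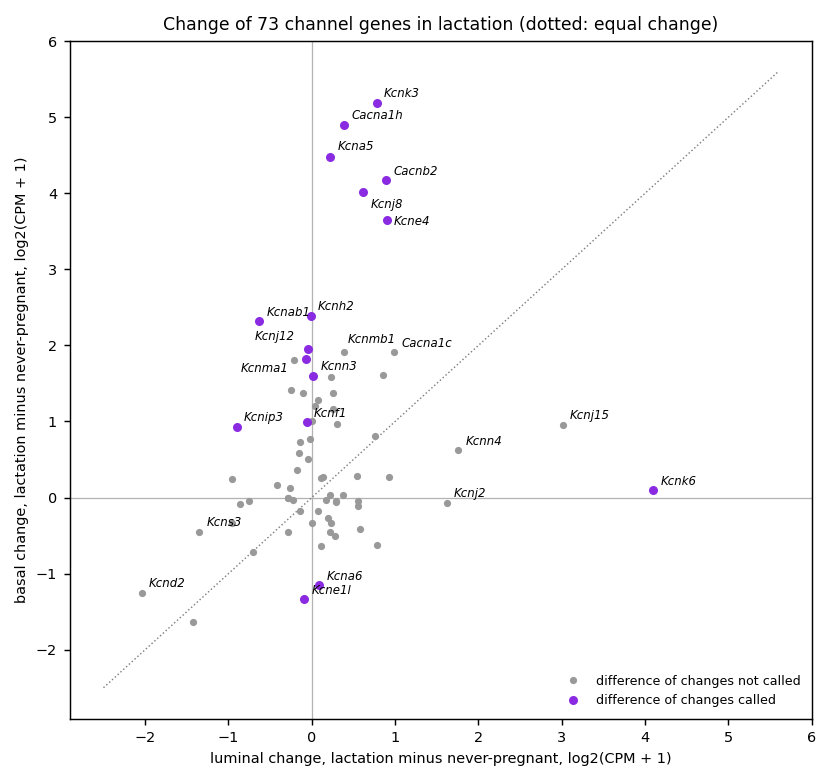
Lactation against never-pregnant change of 73 of the 76 channel genes in luminal cells (horizontal axis) and in basal cells (vertical axis), in log2(CPM + 1) units, with the 16 plotted genes whose changes were called different in purple and equal change as a dotted line. Kcnk6 lies far to the right with a luminal change of 4.10, and Kcnk3, Cacna1h and Kcna5 lie at the top with basal changes of 5.19, 4.90 and 4.48.

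The lactation change itself was compared between the populations. For 15 channel genes it was higher in basal than in luminal cells (19.7%, against 5.4% of all genes) and for 3 it was lower (3.95%, against 4.91%). The median of the basal minus luminal difference was 0.57, and that of all genes was 0.00. Among the largest were Cacna1h (4.51, SE 0.55), Kcnk3 (4.42, SE 0.63) and Kcna5 (4.26, SE 0.51) in one direction and Kcnk6 (-4.00, SE 0.53) in the other. Many of the 15 were near 0 in luminal cells, where the log2(CPM + 1) scale compresses a change. On the recovered reads, edgeR's quasi-likelihood test called 6 differences, among them Kcnk6, Kcnab1 and Kcnh2 of the 18 and Kcnk1, which was not one of the 18. With the sort as a block 23 differences were called, and those added were Kcnd3 (1.66), Kcnn2 (1.21) and Kcne3 (2.02), higher in basal cells, and Kcnj15 (-2.05, adjusted p = 0.0038) and Kcnk1 (-1.41, adjusted p = 0.0043), lower. The differences of Kcnk3, Cacna1h, Kcna5 and Kcnj8 were thus called only by limma.

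Id2, 2 days after forced weaning, was compared with W10, with which it shared an amplification batch. In luminal cells 3 channel genes rose (3.95%, against 6.23% of all genes) and 4 fell (5.26%, against 4.14%). Leaving out 1 library at a time gave 4 to 6 calls in place of these 7. Kcnj15 rose by 5.23 (SE 0.59, adjusted p = 4.1e-08), from 40.1, 20.2 and 18.3 CPM at W10. Kcnk6 rose by 4.18 (SE 0.52, adjusted p = 2.4e-07), from 3.33, 1.47 and 1.62 CPM to 84.6, 61.4 and 30.1 CPM, and Kcnj2 by 2.30 (SE 0.58, adjusted p = 0.0039). In the same comparison 6 of 7 leukocyte, 3 of 8 fibroblast, 2 of 8 pericyte and 1 of 8 endothelial markers rose, and their part in these changes was not tested. Cacng4, Kcnd2, Kcns3 and Kcnab3 fell by between 1.30 and 2.24 on the log2 scale. Kcnk5 was 341, 267 and 199 CPM at Id2, above all 3 W10 libraries (152, 48.3 and 98.3 CPM), but its difference was not called. Kcnn4 was 101, 101 and 64.5 CPM at Id2.

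In basal cells 12 rose at Id2 (15.8%, against 8.78% of all genes) and 10 fell (13.2%, against 8.58%). Of the 10 that fell, 8 were genes called basal over the 8 time points. The matching share among all genes that fell was not counted, so this is not shown to be particular to channel genes. Cacna1d was 37.6, 32.0 and 51.8 CPM at W10 and 0.468, 3.10 and 0.808 CPM at Id2, and fell by 4.20 (SE 0.43, adjusted p = 1.4e-09). Kcnma1 was 31.0, 20.4 and 33.0 CPM at W10 and was listed at 0, 6.30 and 0.646 CPM at Id2, and fell by 3.64 (SE 0.45). Kcnq5, Kcnj2, Kcnip3, Cacnb4, Kcnmb1, Kcnk1, Kcne1l and Kcna6 also fell, by 3.93, 3.55, 3.45, 2.76, 2.38, 2.18, 1.67 and 1.27. All 8 basal epithelial markers fell in the same comparison. Without the 2 Id2 libraries of low basal marker sums, 5 genes fell in place of 10, with Cacna1d, Kcnq5, Kcnma1, Kcnip3 and Kcne1l still called. Of the others, Kcnmb1 then stood at 0.06, a turned direction, and Kcnj2, Cacnb4, Kcnk1 and Kcna6 at -1.24, -1.59, -1.60 and -0.89.

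In basal cells 12 genes rose at Id2. The fit without the 2 libraries of low basal marker sums left only replicate 4, assumed to vary like the other groups. Replicate 4 had the highest pericyte sum of the 3, at 11706 CPM. It was also highest for Kcne4, Kcnk3, Cacna1h, Cacnb2, Kcna5 and Kcnab1, though not for Kcnj8, Kcnj15, Kcnv2 and Kcnt2. Kcnk3, for example, had 36, 889 and 54 reads in replicates 2, 4 and 6. That fit therefore could not show whether the rises held apart from replicate 4. Among the 12 were Kcnj8 (4.58), Kcnj15 (4.16), Kcne4 (4.11), Kcnk3 (3.47), Cacna1h (3.38), Kcnv2 (2.94), Cacnb2 (2.86), Kcna5 (2.61), Kcnt2 (2.56) and Kcnab1 (2.19). Kcnj8 was 62.9, 46.1 and 49.3 CPM at Id2 against 2.22, 0.718 and 1.02 CPM at W10, and the fibroblast sums of the same 3 Id2 libraries were 3053, 10239 and 72328 CPM. Kcnj15 rose in both populations and was 217, 124 and 55.4 CPM in the basal Id2 libraries. Luminal markers summed to 966, 580 and 241 CPM in the same 3 libraries, in the same order, against 438 to 2262 CPM at W10. In luminal libraries the mean of Kcnj15 was 965 CPM at Id2 and 23.2 CPM in never-pregnant glands. The part of luminal cells in the basal Kcnj15 result was not tested. Of the 8 markers each of pericytes, fibroblasts and endothelium, 7 of each rose in this comparison, and their part in the result was not tested.

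Within pregnancy, P14.5 was compared with P3.5. In luminal cells Kcnk6 rose by 2.85 (SE 0.52, adjusted p = 0.00062) and the silent subunit Kcns1 by 1.40, so 2 genes rose (2.63%, against 0.814% of all genes), and the tandem-pore Kcnk16 fell by 1.45 (1.32%, against 0.709%). In basal cells 5 rose (6.58%, against 2.46%) and 0 fell (0.00%, against 1.18%). They were Kcnj8 (4.16, SE 0.59), Kcne4 (3.48, SE 0.77), Kcnk6 (2.67, SE 0.58), Kcnn3 (2.45, SE 0.48) and Kcna1 (1.73, SE 0.36). Kcnj8 alone of these kept its call without each single library, and without basal P14.5 replicate 3 Kcne4 stood at 2.89, Kcnn3 at 1.71 and Kcna1 at 1.07. Kcnj8 was 25.6 and 33.4 CPM in the 2 basal P14.5 libraries against 0.792, 0.224 and 1.23 CPM at P3.5, where 7 of 8 fibroblast, 4 of 8 pericyte, 4 of 8 endothelial and 2 of 4 adipocyte markers rose. The endothelial sum was 785 and 326 CPM at P14.5 against 11.9 to 59.7 CPM at P3.5, and the luminal sum was 493 and 1536 CPM against 512 to 848 CPM. Their part in these changes, that of Kcnk6 included, was not tested. Abcc9, the sulphonylurea receptor that pairs with the Kcnj8 pore, had a basal mean of 2.91 CPM at P3.5 and 112 CPM at P14.5.

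Between L10 and L3, 0 channel genes were called in luminal cells (0.281% of all genes higher and 0.0995% lower), with 6 at an unadjusted p under 0.05 and 0 called by edgeR. In basal cells 2 rose (2.63%, against 0.457%) and 0 fell (0.679% of all genes), Kcna5 by 2.54 (SE 0.56, adjusted p = 0.0071) and Kcnf1 by 1.57 (SE 0.28, adjusted p = 0.00085). Kcnf1 rested on small numbers, with 4.46 CPM (47 reads) in basal L10 replicate 6, without which its value was 0.97. Kcna5 lost its call without either L10 library or without L3 replicate 4 or 6. The parous glands were compared with the age-matched M4 glands, and 0 of 76 channel genes were called in luminal or in basal cells, where 0% of all genes in luminal cells, and 0% higher and 0.00586% lower in basal cells, were called. By an unadjusted p under 0.05, 2 genes in luminal and 3 in basal cells differed, and edgeR also called 0. The largest absolute change in basal cells was 1.03 (Cacnb2).

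By family, the calls over the 8 time points can be set beside the 13.6% of all genes that were higher and the 7.35% that were lower in basal cells. Of 7 voltage-gated calcium pores, 5 were higher in basal cells and 0 lower, with a median difference of 2.76. Of 8 tandem-pore channels, 2 were higher and 3 lower, and the median was -0.12. The 19 voltage-gated potassium pores gave 6 higher and 4 lower, the 9 calcium- or sodium-activated channels and subunits 4 higher (among them Kcnma1 and Kcnmb1) and 1 lower (Kcnn4), and the 7 silent subunits 0 in either direction. Of 11 auxiliary potassium subunits, 5 were higher. In lactation in basal cells, 3 of the 4 calcium channel beta subunits rose, and 7 of the 19 voltage-gated potassium pores, against 9.58% of all genes. Pericyte and endothelial marker sums were higher in the same libraries, and the part of such cells was not tested.

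The channel genes were also counted by lists of known function. Of 14 smooth muscle channel genes 13 were in the table, and 11 were higher in basal cells (13.6% of all genes) and 0 lower (7.35%), with a median of 2.30 against 0.02 for all genes. Kcnmb4, at 0.56, and Cacnb3 were the 2 not called. Of the 14 secretory potassium channel genes 11 were in the table, and 6 were luminal (Kcnn4, Kcnj15, Kcnk5, Kcnk6, Kcnk1 and Kcnq1), 1 basal (Kcnma1) and 4 not called (Kcne2, Kcne3, Kcnj13 and Kcnh1), with a median of -1.15. In basal cells in lactation, 10 of the 13 smooth muscle channel genes and 2 of the 11 secretory channel genes (Kcnma1 and Kcne3) rose (9.58% of all genes). Pericyte marker sums in those basal libraries were 2003 to 17317 CPM, against 161 to 246 CPM in never-pregnant basal libraries. Endothelial sums were 580 to 1395 CPM against 32.4 to 225 CPM, and the part of these cells was not tested. In luminal cells 0 smooth muscle and 3 secretory channel genes rose (7.37% of all genes). The lists hold some of the genes named above, and their counts are not further evidence.

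Genes that work with these channels also differed. Of 14 partner genes in the table, 7 were higher in basal cells (13.6% of all genes) and 2, Lrrc26 and Abcc8, in luminal cells (7.35%). In luminal lactation libraries Lrrc26, the gamma subunit of the large-conductance channel, rose by 1.92, whereas Abcc8 fell by 4.08 on the log2 scale. In basal lactation libraries 4 partner genes rose (9.58% of all genes), Abcc9 by 4.15 and the calcium channel inhibitors of the RGK family Rrad and Rem1 by 3.49 and 3.27, with Stac by 3.00. Of 19 calcium entry and release genes, 7 rose in basal lactation libraries (9.58% of all genes), led by the release channel Ryr2 (3.49), and 2, Trpv6 and Orai2, fell (6.97%), and in luminal libraries Orai1, the store-operated pore, rose by 1.80. Of 10 calcium pumps and exchangers, 3 rose in luminal cells (7.37% of all genes) and 4 in basal cells (9.58%), led in basal cells by Atp2a3 (4.06). Among the luminal ones was Atp2b2, the plasma membrane pump that carries calcium into milk, with 5.98 (SE 0.45, adjusted p = 3e-12 in limma). Pericyte marker sums in the basal lactation libraries were 2003 to 17317 CPM, against 161 to 246 CPM in never-pregnant basal libraries. Adipocyte marker sums there were 657 to 1118 CPM against 25.7 to 76.7 CPM. The part of such cells in the basal rises of these partner and calcium genes was not tested.

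Many members were seen only as a handful of reads, and for these the read numbers are given. Kcnt2 reached at most 2 reads in any luminal library and Kcna6 at most 2, against up to 179 and 45 reads in a basal library. Kcne2, a small subunit of secretory channels, reached 21 reads in 1 luminal W10 library and at most 3 reads in basal libraries. Single libraries held single genes: the silent subunit Kcng1 had 420 reads (39.9 CPM) in 1 L10 basal library and at most 2.04 CPM in any other library, and Kcnc2 had 114 reads in 1 Id2 basal library and at most 35 in any other. The high values of these 2 genes rest on 1 amplified library each. Kcnv2, another silent subunit, had 7, 62 and 183 reads in the 3 Id2 basal libraries, all above the W10 basal libraries, which held 0. Of the exon bases of Kcnj13, Kcna6 and Kcnmb4, 49.1%, 39.6% and 31.5% lay in other annotated genes, and reads from those genes on either strand cannot be told apart from their own.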

How the data were processed

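Luminal and basal cells were sorted from pooled glands, and their RNA was amplified and sequenced. The authors aligned reads to mm9 with GSNAP, counted reads per Ensembl gene with HTSeq and normalised with edgeR, set aside 1 outlier library (not used here) and removed genes of low level or with very many reads. The deposited signal values are read counts divided by the effective library size (CPM). Whole reads were recovered from the steps between low values (100.0% of values whole within 0.02 of a read), and 3 reads were taken as the floor. Such reads include amplification copies, so they cover counting error only.

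Gene identifiers were paired with symbols through the reference table (16897 of 17078 matched). The main test was limma 3.58.1 (R 4.3.3), moderated with trend, on log2(CPM + 1) with 1 mean for each of the 16 conditions, and calls needed a 2-fold change with a p adjusted by Benjamini and Hochberg's method over all 17078 genes of less than 0.01. The alternatives were edgeR 4.0.16 on recovered reads, a pseudocount of 0.1, median-ratio scaling, a mean of at least 1 CPM, each library left out, and the sort as a block. Libraries of 1 sort deviated together (median correlation 0.25 over 22 pairs, 21 positive), and the pairing comes from the sort shared by their labels. The model was tested on simulated data. The named genes were the largest called changes in each comparison, every member with a condition mean of at least 20 CPM and the members of the fixed lists. A few members are counted but not reported by name here. The members and lists were chosen with earlier results of these data known. Promoter windows came from RefSeq (GRCm38.p6), a build other than that of the counts, and no coordinates were converted. Batches are the amplification batches of the labels.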

Additional observations from a re-analysis of the deposited data

Results flagged for a closer look

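The lactation change differed between basal and luminal cells for 18 channel genes, by limma's test of the difference itself (basal minus luminal, log2 scale, false discovery rate under 0.01 over all genes). Among those reported by name, the change was larger in basal cells for Cacna1h (4.51), Kcnk3 (4.42), Kcna5 (4.26), Kcnj8 (3.40), Cacnb2 (3.28), Kcnab1 (2.95), Kcne4 (2.74), Kcnh2 (2.39), Kcnj12 (1.99), Kcnma1 (1.89), Kcnip3 (1.84), Kcnn3 (1.58) and Kcnf1 (1.04). For Kcne4 the direction turned with edgeR on recovered reads (-0.65). It was smaller in basal cells for Kcnk6 (-4.00), Kcne1l (-1.25) and Kcna6 (-1.24). The luminal levels of most of the first 15 were near 0, and pericyte marker sums in basal lactation libraries were 2003 to 17317 CPM and adipocyte marker sums 657 to 1118 CPM. The part of these cells in the differences was not tested.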

How the results depend on the processing

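The counts of channel genes kept within 1.5 times of their reported value under most alternatives, with these exceptions, whose cause was not tested. With edgeR on recovered reads, 14 genes in place of 9 were lower in basal than in luminal cells, 11 in place of 7 changed in luminal lactation, 6 in place of 18 differed in lactation change and 0 in place of 2 in basal L10 against L3. With a pseudocount of 0.1 the lactation difference gave 9, basal P14.5 against P3.5 gave 3 in place of 5 and basal L10 against L3 gave 0. With a mean of at least 1 CPM, fewer genes were tested, and luminal P14.5 against P3.5 gave 1 in place of 3 and basal L10 against L3 gave 1. Alternatives chosen after seeing the data were the lactation results without the L10 libraries (difference 11), the cell-type comparison without P14.5, L3, L10 and Id2, and Id2 without the 2 basal libraries of low marker sums. With fewer samples by construction, Kcnab1 turned to -0.16 in the cell-type comparison and Kcnmb1 to 0.06 at Id2. With edgeR the lactation difference of Kcne4 turned to -0.65. Leaving out 1 library at a time gave 5 to 11 calls in luminal lactation, 2 to 4 in basal and 2 to 3 in luminal P14.5 against P3.5, 0 to 1 in luminal and 0 to 3 in basal L10 against L3, and 4 to 6 in luminal and 20 to 24 in basal Id2 against W10. With the sort as a replicate block, the 119 gene results tested by name were unchanged in call, Kcnj15 and Kcnk1 gained luminal calls at single time points, Kcnd2 was no longer called as varying in basal cells (adjusted p = 0.011), and the lactation difference gave 23. Of the same 119, edgeR lost the call of 30 and reversed 1, and a pseudocount of 0.1 lost 26. Median-ratio scaling moved the median of all genes by at most 0.063 and changed no call of the 119. Levels of a few reads limit what can be called for 22 genes.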
